A study of Mus musculus with 12 samples.

Results

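Primary fibroblasts from mouse ear were compared between 2 kinds of hydrogel that stand at opposite corners of a design of stiffness and stress relaxation. Soft viscoelastic gels of 2 kPa give way slowly under a steady pull, so that both softness and relaxation lower the resistance a cell meets, and stiff elastic gels of 20 kPa do neither. The comparison holds 6 of the 12 samples of the series, 3 on each kind of gel, chosen by their labels alone. The other 6 samples, 3 on 2-kPa elastic and 3 on 20-kPa viscoelastic gels, carry 1 of the changes each and serve here to take the joint change apart. All cells came from the ears of mice that carried no treatment named in the labels, were used at passage 2 and were harvested for polyadenylated RNA after 48 h on alginate that bore the RGD adhesion peptide. The ears came from C57BL/6 mice of 1 month and both sexes or from a Tau-EGFP reporter line. Which of them gave these libraries was not stated in the sources used here. The elastic gels were crosslinked covalently and the viscoelastic gels ionically and slowly relaxing, so stress relaxation and the kind of crosslink cannot be told apart.

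Adherent cells grip a matrix through integrins, which couple through talin and vinculin to contractile actin bundles, and the tension that builds up depends on how firmly the matrix holds. That tension reaches the nucleus through the LINC complex and the lamina, and it is read out by the transcription factors SRF, with its cofactor MRTF, and TEAD, with its cofactor YAP. In fibroblasts, firm adhesion is also known to favour passage through the cell cycle and the deposition and crosslinking of collagen.

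Each sample held between 36626221 and 43612804 counts on genes, and 14542 of the 33246 genes listed passed the expression filter and were tested. The fibroblast label was met by all 11 fibroblast markers, which summed to between 18000 and 20800 CPM, counts scaled to a common library size, in each of the 6 samples. Markers of keratinocytes, endothelium, immune cells, melanocytes, Schwann cells, muscle and adipocytes summed to at most 67.2 CPM. Cartilage genes were abundant, since the sum of 8 chondrocyte markers ran from 4690 to 4730 CPM on the stiff elastic gels and from 5030 to 6480 CPM on the soft viscoelastic ones, led by Col2a1. The 7 pericyte and smooth muscle markers, mostly Cspg4, summed to 392 to 528 CPM in the stiff elastic and to 335 to 348 CPM in the soft viscoelastic samples. Replicates on 2-kPa viscoelastic gels differed by 37.4 to 55.5 times the variance of counting alone and those on 20-kPa elastic gels by 12.2 to 32.9 times, as the mean over genes. As the median over genes these values were 2.4 to 4.1 times and 1.7 to 2.4 times. Values of single samples are given in the order of replicates 1 to 3, those on the stiff elastic gels before those on the soft viscoelastic gels. These are bulk samples, in which fewer cells of a type and less RNA per cell cannot be told apart.

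On soft viscoelastic gels, fibroblasts carried less RNA of genes for DNA replication and mitosis, of nuclear pore, lamina and integrin genes and of contractile genes. The largest shares of members that rose were those of cytosolic ribosomal protein genes, of proteoglycan and hyaluronan genes and of NRF2 and glutathione transferase genes. Some members of the last 2 lists fell. The count of ribosomal protein genes that rose, 31 of 80, ran from 4 to 61 when 1 sample was left out. Of the genes tested, 1513 were higher and 1799 lower at a Benjamini-Hochberg adjusted p under 0.05, which is 10.4% and 12.4% of all tested genes, or 22.8% in either direction. The changes were mostly small: 2372 of the 3312 called genes moved by less than 0.5 on the log2 scale, 803 by 0.5 to 1 and 137 by 1 or more, of which 48 rose and 89 fell. The median gene differed by 0.02 on the log2 scale. The count of called genes depended on single samples, with 1419 without 20-kPa elastic replicate 3 and 1709 without 2-kPa viscoelastic replicate 3, and with 2074 when the 6 samples were fitted alone. With libraries scaled by total counts in place of TMM the split was 1831 higher and 1528 lower.

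**Figure D1:**
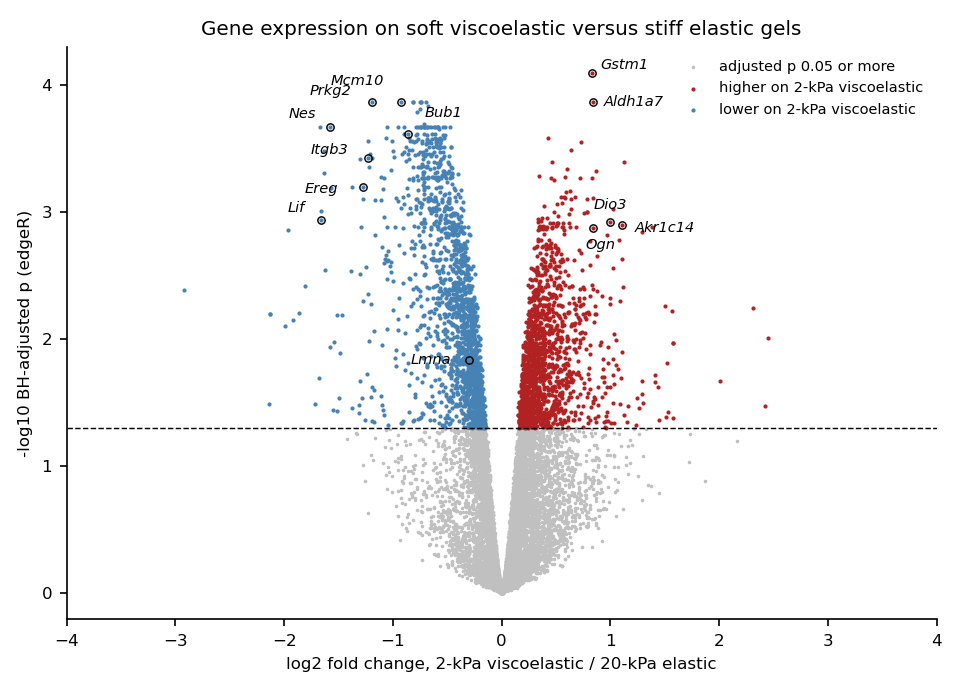
Change of each of 14542 tested genes between 2-kPa viscoelastic and 20-kPa elastic gels (x axis, log2 fold change, positive for higher on viscoelastic gels) against the −log10 of its adjusted p (y axis). Points are genes, the dashed line marks an adjusted p of 0.05, and the named circles include Gstm1, with the lowest p, and Lif and Nes, 2 of the largest decreases among abundant genes.

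Mitotic and replication genes had the largest shares of called members among the 34 gene lists. Of 46 tested DNA replication genes 39 fell and none rose, and of 36 mitotic genes 35 fell and none rose, beside 12.4% lower among all tested genes. The median log2 fold change was −0.51 for the replication list and −0.62 for the mitotic list. Mcm10, a factor needed to start replication forks (chromosome 2, 4989714 to 5012791, minus strand in mm10), measured 19.6, 23.4 and 25.3 CPM on 20-kPa elastic gels and 12.1, 12.2 and 11.8 CPM on the soft viscoelastic gels (log2 fold change −0.92 ± 0.10 (SE), adjusted p = 0.000134). Bub1, a kinase of the spindle checkpoint (chromosome 2, 127801122 to 127831865, minus strand), measured 51.7, 56.2 and 62.6 CPM on elastic and 35.7, 27.6 and 30.4 CPM on viscoelastic gels (log2 fold change −0.86 ± 0.11 (SE), adjusted p = 0.000241). In both genes the groups lay apart, as for 18.4% of all tested genes in the lower direction, and 20-kPa elastic replicate 3 was the highest of the 6 samples. All 6 tested subunits of the replicative helicase Mcm2-7 fell, from −0.48 for Mcm7 to −0.78 for Mcm5. The largest decreases after Bub1 on the mitotic list were those of Ect2, a guanine nucleotide exchange factor of cytokinesis (−0.83), of Anln, the cytokinetic ring protein anillin (−0.83), and of Mki67, the proliferation antigen (555, 521 and 670.2 against 349.9, 309 and 326 CPM, log2 fold change −0.83 ± 0.11 (SE), adjusted p = 0.000325).

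Promoters of Mcm10 and Bub1 are shown because CCAAT boxes were frequent among the cell cycle genes that moved together. They are the 250 bases before the RefSeq start site in GRCm38.p6, chr2:5012792-5013041 and chr2:127831860-127832109, both on the minus strand, with CCAAT or its complement ATTGG in capitals.
Mcm10: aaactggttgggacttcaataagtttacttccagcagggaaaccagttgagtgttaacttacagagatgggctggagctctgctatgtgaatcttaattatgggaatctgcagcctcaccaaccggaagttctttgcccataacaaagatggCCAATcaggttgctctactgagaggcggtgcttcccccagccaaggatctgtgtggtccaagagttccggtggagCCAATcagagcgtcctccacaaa
Bub1: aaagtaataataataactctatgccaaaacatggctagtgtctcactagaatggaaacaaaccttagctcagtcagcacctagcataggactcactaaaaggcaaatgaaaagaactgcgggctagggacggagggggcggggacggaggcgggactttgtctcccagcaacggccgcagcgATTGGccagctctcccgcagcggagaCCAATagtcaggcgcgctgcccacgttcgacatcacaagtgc
The CCAAT box, searched as CCAAT on both strands, lay in 23 of 31 mitotic promoters (74.2%) and 21 of 37 replication promoters (56.8%), beside 36.5% of the 10882 promoters of tested genes. In Mcm10 it lay 98 and 23 bases before the start, and in Bub1 68 and 42 bases before it. The CHR element of mitotic genes, searched as TTTGAA or TTCGAA, was in 35.5% of mitotic and 16.2% of replication promoters beside 12.3% of all. E2F sites, searched as TTTCCCGC, TTTCGCGC, TTTGCCGC or TTTGGCGC, were in 24.3% of replication and 3.23% of mitotic promoters beside 3.32% of all. These matches describe letters and were not tested as binding sites.

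Upstream of replication, 7 of 21 G1 cyclin and CDK inhibitor genes fell and 1 rose, beside 10.4% higher and 12.4% lower among all genes. Ccne2, the cyclin that starts S phase, measured 29.2, 35.5 and 37.6 CPM on the stiff elastic and 24.98, 16.1 and 16.4 CPM on the soft viscoelastic gels (log2 fold change −0.83 ± 0.15 (SE), adjusted p = 0.00168). Ccnd1, the cyclin that links growth signals to the cycle, fell by 0.49 and the pocket protein gene Rbl1 by 0.67 on the log2 scale. Cdkn2b, an inhibitor of the CDK4 and CDK6 kinases, rose (6.02, 5.47 and 6.56 to 7.48, 7.52 and 7.56 CPM, log2 fold change 0.32 ± 0.09 (SE), adjusted p = 0.0149). Of 25 p53 target genes 7 rose, beside 10.4% higher among all genes, led by Dcxr, a carbonyl reductase (log2 fold change 0.51 ± 0.09 (SE), adjusted p = 0.00122). Tnfrsf10b, a death receptor, fell (−0.24 (adjusted p = 0.0175)). The count of p53 targets that rose was 4 without 2-kPa viscoelastic replicate 2, 3 without 2-kPa viscoelastic replicate 3, 3 without 20-kPa elastic replicate 2, 1 without 20-kPa elastic replicate 3 and 2 with the 6 samples fitted alone. Cdkn2b lost its call without 2-kPa viscoelastic replicate 3 (adjusted p = 0.0509) or 20-kPa elastic replicate 2 (0.0742), and with the length and GC correction (adjusted p = 0.0512) and with the 6 samples fitted alone (0.0585). Tnfrsf10b lost its call without 2-kPa viscoelastic replicate 3 (adjusted p = 0.0832) or 20-kPa elastic replicate 3 (0.108), and with the 6 samples fitted alone (adjusted p = 0.0656).

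Uhrf1, Melk, Mcm3 and Prkg2 were among the 5 genes that fell with the lowest adjusted p, and the first 3 act in the cell cycle. Uhrf1, which keeps DNA methylation on newly copied strands, measured 68.01, 71.5 and 77.8 CPM on elastic and 42.6, 41.6 and 38.96 CPM on viscoelastic gels (log2 fold change −0.82 ± 0.08 (SE), adjusted p = 0.000134). Melk, a mitotic kinase, changed by −0.74 (adjusted p = 0.000134) on the log2 scale and the helicase subunit gene Mcm3 by −0.75 (adjusted p = 0.000134). Prkg2, the cGMP-dependent kinase II, measured 26.6, 31.7 and 38.9 CPM on elastic and 13.5, 16.4 and 12.7 CPM on viscoelastic gels (log2 fold change −1.19 ± 0.12 (SE), adjusted p = 0.000134). These genes were chosen among those whose groups did not overlap.

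**Figure D2:**
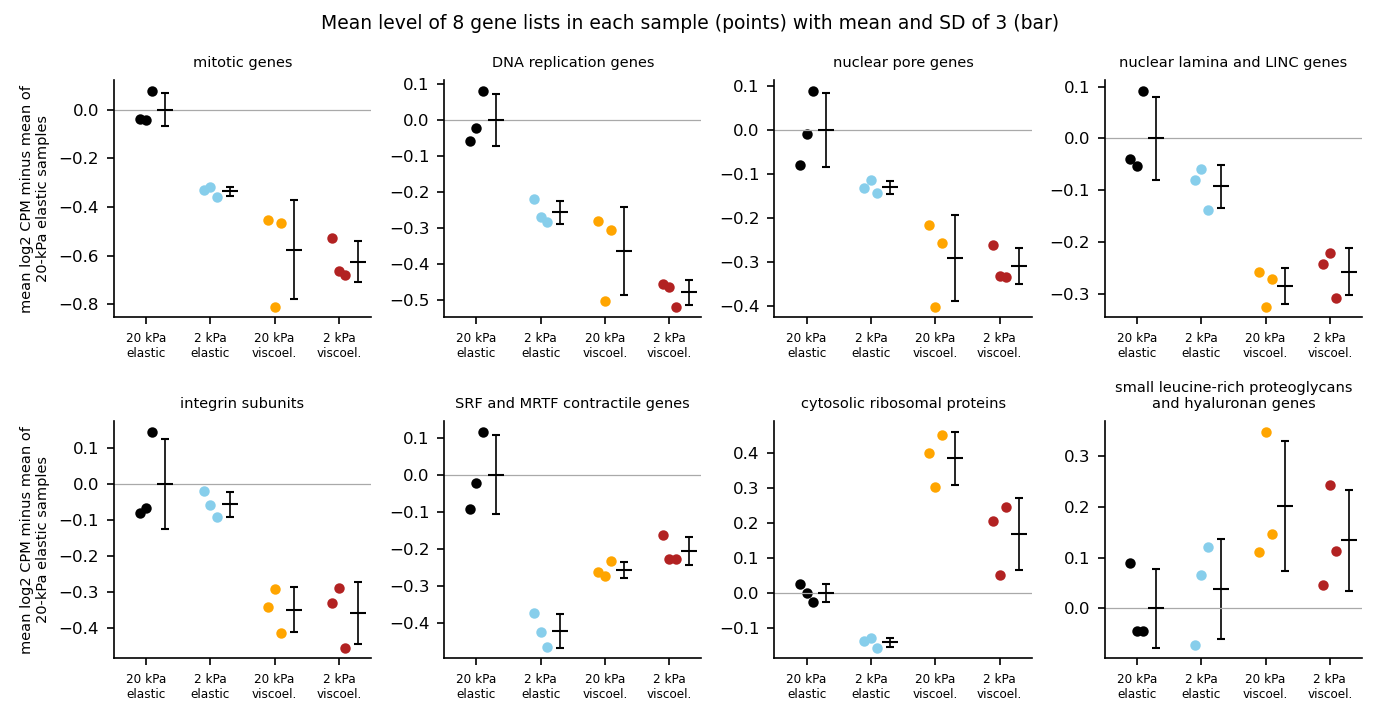
Mean level of 8 gene lists in each of the 12 samples, as log2 CPM minus the mean of the 3 samples on 20-kPa elastic gels (y axis), by gel (x axis). Points are samples and bars the mean and SD of 3: mitotic and replication genes lay lower in all 3 samples on 2-kPa viscoelastic gels than in any on 20-kPa elastic gels, and nuclear pore genes did as well.

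At the nuclear envelope, 23 of 30 nuclear pore genes and 11 of 19 lamina and LINC genes fell and none rose, beside 12.4% lower among all genes. Medians were −0.30 and −0.29 on the log2 scale. Ndc1, a membrane nucleoporin that anchors the pore, measured 79.3, 84.8 and 101 CPM on the stiff elastic and 53.6, 53.3 and 51.01 CPM on the soft viscoelastic gels (log2 fold change −0.74 ± 0.08 (SE), adjusted p = 0.000134). Nup155, Nup160 and Nup205, scaffold nucleoporins, changed by −0.58, −0.56 and −0.58. Lbr, the lamin B receptor, measured 62.5, 62.4 and 75.4 against 44.96, 45.5 and 38.03 CPM (log2 fold change −0.64 ± 0.08 (SE), adjusted p = 0.000241). Lmnb1, which encodes lamin B1, measured 63.2, 59.8 and 65.8 against 42.9, 44.1 and 35.5 CPM (log2 fold change −0.62 ± 0.09 (SE), adjusted p = 0.000399). Lmna, which encodes lamins A and C (chromosome 3, 88480147 to 88509956, minus strand), measured 569, 578 and 639 CPM on elastic and 469, 543 and 436 CPM on viscoelastic gels (log2 fold change −0.30 ± 0.08 (SE), adjusted p = 0.0146), a smaller change whose groups lay close together. Of the LINC genes, Sun1 (−0.19), Sun2 (−0.32) and Syne2 (−0.43) fell. The pore count was 13 without 20-kPa elastic replicate 3 and the lamina count 6 without 2-kPa viscoelastic replicate 3 and 6 without 20-kPa elastic replicate 3. Lmna lost its call without 2-kPa viscoelastic replicate 3 (adjusted p = 0.0772) or 20-kPa elastic replicate 3 (0.0814), and with the 6 samples fitted alone (adjusted p = 0.0585).

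Integrins are the receptors by which fibroblasts hold the matrix. Of 18 integrin subunit genes 8 fell and none rose, beside 12.4% lower among all genes, a count of 8 that every alternative fit gave at that threshold. Itga2, a collagen-binding subunit, measured 6.21, 7.02 and 11.6 CPM on the stiff elastic and 3.97, 3.58 and 2.696 CPM on the soft viscoelastic gels (log2 fold change −1.27 ± 0.20 (SE), adjusted p = 0.000791). Itgb3, which pairs with Itgav to bind RGD, the peptide on these gels, measured 15.5, 18.3 and 25.3 against 9.46, 8.48 and 7.33 CPM (log2 fold change −1.22 ± 0.17 (SE), adjusted p = 0.000374), and Itgav changed by −0.57. Itga5 (−0.66), Itga6 (−0.82), Itga3 (−0.72) and Itgb7 (−0.96) also fell. Itgb1, the common partner chain of fibroblast integrins, moved less, from 1753, 1735 and 1998 to 1491, 1457 and 1390.3 CPM (log2 fold change −0.34 ± 0.07 (SE), adjusted p = 0.00438). In none of Itga2, Itgb3 and Itgb1 did the 2 groups overlap, and 18.4% of all tested genes were lower with separated groups.

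Of 33 focal adhesion adaptors and kinases 8 fell and none rose, beside 12.4% lower among all genes, with a median of −0.12 on the log2 scale. Parvb, an adaptor that joins integrin-linked kinase to actin, measured 11.04, 13.4 and 15.9 CPM on elastic and 7.57, 6.32 and 6.28 CPM on viscoelastic gels (log2 fold change −0.998 ± 0.13 (SE), adjusted p = 0.000328). Vcl, which encodes vinculin (chromosome 14, 20929398 to 21033676, plus strand), measured 251, 266 and 301 against 222, 145 and 196 CPM (log2 fold change −0.54 ± 0.13 (SE), adjusted p = 0.00858), and 2-kPa viscoelastic replicate 1 came closest to the elastic samples. Tln1, which encodes talin 1, measured 628, 621 and 684 against 567, 532 and 553 CPM (log2 fold change −0.23 ± 0.07 (SE), adjusted p = 0.029). The count of adaptors that fell was 5 without 2-kPa viscoelastic replicate 2, 3 without 2-kPa viscoelastic replicate 3, 5 without 20-kPa elastic replicate 2, 2 without 20-kPa elastic replicate 3 and 3 with the 6 samples fitted alone. Vcl lost its call without 20-kPa elastic replicate 3 (adjusted p = 0.0506). Tln1 lost its call without 2-kPa viscoelastic replicate 2 (adjusted p = 0.0697) or 2-kPa viscoelastic replicate 3 (0.0764) or 20-kPa elastic replicate 3 (0.14), and with the length and GC correction (adjusted p = 0.0641) and with the 6 samples fitted alone (0.0714). Without these single samples the directions of Vcl and Tln1 stayed negative.

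Of 26 SRF and MRTF contractile genes 10 fell and none rose, and of 36 actin assembly genes 6 fell and none rose, beside 12.4% lower among all genes, which the actin assembly share of 16.7% lay close to. Acta2, smooth muscle actin, measured 722, 795 and 829 CPM on the stiff elastic and 673, 629 and 618 CPM on the soft viscoelastic gels (log2 fold change −0.29 ± 0.08 (SE), adjusted p = 0.0202). Actg2, the enteric smooth muscle actin, measured 20.7, 21.8 and 25.98 against 17.5, 16.9 and 13.3 CPM (log2 fold change −0.52 ± 0.10 (SE), adjusted p = 0.00334). Acta1, the skeletal actin, measured 5.65, 8.58 and 10.03 against 4.67, 5.95 and 5.77 CPM with overlapping groups (log2 fold change −0.56 ± 0.19 (SE), adjusted p = 0.0405). Filip1l, which encodes a filamin-interacting protein, measured 45.5, 41.8 and 45.7 against 38.8, 35.2 and 37.8 CPM (log2 fold change −0.25 ± 0.07 (SE), adjusted p = 0.0195). The filament crosslinker Flna (−0.55), the actin-binding protein Tagln (−0.45) and non-muscle myosin Myh9 (−0.29) fell as well. Diaph3, a formin that elongates actin filaments, led the assembly genes (96.9, 95.7 and 113 to 67.9, 54.6 and 57.03 CPM, log2 fold change −0.76 ± 0.11 (SE), adjusted p = 0.000442). Actin genes are near-identical in sequence, so reads could be split between them by the counting. The contractile count was 4 without 2-kPa viscoelastic replicate 3, 4 without 20-kPa elastic replicate 3 and 6 with the 6 samples fitted alone, and the actin assembly count 12 without 2-kPa viscoelastic replicate 1, 11 by the DESeq2 Wald test and 13 with the length and GC correction. Acta2 lost its call without 2-kPa viscoelastic replicate 3 (adjusted p = 0.0801) or 20-kPa elastic replicate 2 (0.0628) or 20-kPa elastic replicate 3 (0.0987). Acta1 lost its call without 2-kPa viscoelastic replicate 1 or 2 or 3 or 20-kPa elastic replicate 2 or 3 or 20-kPa viscoelastic replicate 3 (adjusted p of up to 0.213, without 20-kPa elastic replicate 3), and with the 6 samples fitted alone (adjusted p = 0.0692). Filip1l lost its call without 2-kPa viscoelastic replicate 2 (adjusted p = 0.0626) or 2-kPa viscoelastic replicate 3 (0.0527) or 20-kPa elastic replicate 3 (0.0858). The summed pericyte and smooth muscle markers given above, mostly Cspg4, were also lower on soft viscoelastic gels. Of these 7 markers 1 rose and 2 fell, beside 10.4% higher and 12.4% lower among all genes. Rgs5 measured 0.513, 0.547 and 0.518 CPM on stiff elastic and 0.958, 0.912 and 0.93 CPM on soft viscoelastic gels. The part of such cells in the contractile result was not tested.

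The promoter of Acta1 is shown because it is the called contractile gene with an exact match to the CArG box, the site that SRF binds. Shown are the 250 bases before its RefSeq start (chr8:123894776-123895025, minus strand, GRCm38.p6, box in capitals, 73 bases before the start).
Acta1: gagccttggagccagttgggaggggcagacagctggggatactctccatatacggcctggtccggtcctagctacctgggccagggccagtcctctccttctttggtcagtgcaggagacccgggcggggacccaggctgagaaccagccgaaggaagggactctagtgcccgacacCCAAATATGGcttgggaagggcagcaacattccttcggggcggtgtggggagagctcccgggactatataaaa
The CArG box, searched as CCWWWWWWGG with W for A or T, was in 7 of 23 contractile promoters (30.4%) beside 1.12% of all. It was in 1 of the 8 called genes with a promoter sequence. Stretches that differ from this pattern in a single letter, such as ccctatatgg in the same window of Acta2, were not counted. A missing match therefore does not show that a promoter lacks an SRF site.

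Of 31 tubulin and microtubule-associated genes 14 fell and 2 rose, beside 10.4% higher and 12.4% lower among all genes. Tuba8, an alpha-tubulin of low level here, measured 1.66, 1.76 and 2.59 against 1.24, 1.01 and 1.24 CPM (log2 fold change −0.78 ± 0.22 (SE), adjusted p = 0.0201), and the more abundant Tubb6 changed by −0.62 and Tuba1c by −0.52. Tubg2, a gamma-tubulin of microtubule nucleation, measured 2.68, 3.102 and 2.34 against 3.599, 3.87 and 3.58 CPM (log2 fold change 0.44 ± 0.13 (SE), adjusted p = 0.0214). The number that fell was 8 without 2-kPa viscoelastic replicate 3 and 8 without 20-kPa elastic replicate 3. Tuba8 lost its call without 2-kPa viscoelastic replicate 2 (adjusted p = 0.0663) or 2-kPa viscoelastic replicate 3 (0.054) or 20-kPa elastic replicate 3 (0.126). Tubg2 lost its call without 2-kPa viscoelastic replicate 2 (adjusted p = 0.0621) or 2-kPa viscoelastic replicate 3 (0.0542) or 20-kPa elastic replicate 3 (0.114), and with the 6 samples fitted alone (adjusted p = 0.0595). Reads of tubulin paralogs may be shared between them. The intermediate filament gene Nes, nestin, had one of the largest decreases, from 20.5, 20.5 and 35.5 CPM on 20-kPa elastic to 8.62, 9.53 and 7.37 CPM on the soft viscoelastic gels (log2 fold change −1.58 ± 0.18 (SE), adjusted p = 0.000211), with 20-kPa elastic replicate 3 the highest.

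Targets of YAP and TEAD did not move as a block: of 23 tested, 2 rose and 6 fell, with a median of −0.03, and the share that fell (26.1%) lay above the 12.4% of all genes. Axl, a receptor tyrosine kinase, measured 364, 397 and 489 CPM on elastic and 286, 254 and 241 CPM on viscoelastic gels (log2 fold change −0.68 ± 0.10 (SE), adjusted p = 0.000401). Igfbp3, an IGF-binding protein, measured 149, 131 and 106 against 205, 236 and 222 CPM (log2 fold change 0.78 ± 0.12 (SE), adjusted p = 0.000784). Ccn2, connective tissue growth factor and the usual readout of YAP, measured 3251, 2781 and 2883 against 3406, 4015 and 3268 CPM and did not pass the test (log2 fold change 0.26 ± 0.12 (SE), adjusted p = 0.123), although its groups did not overlap, as for 18.0% of all genes. Without the expression filter it passed, at an adjusted p of 0.0429. Ccn1 measured 1086, 839.97 and 1175 against 1102, 1451 and 1098 CPM (0.24 (adjusted p = 0.26)). The number that fell was 3 without 2-kPa viscoelastic replicate 3, 3 without 20-kPa elastic replicate 3 and 3 with the 6 samples fitted alone. The TEAD motif GGAATG, on either strand, was in 7 of 16 promoters of the list (43.8%) beside 10.9% of all.

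**Figure D3:**
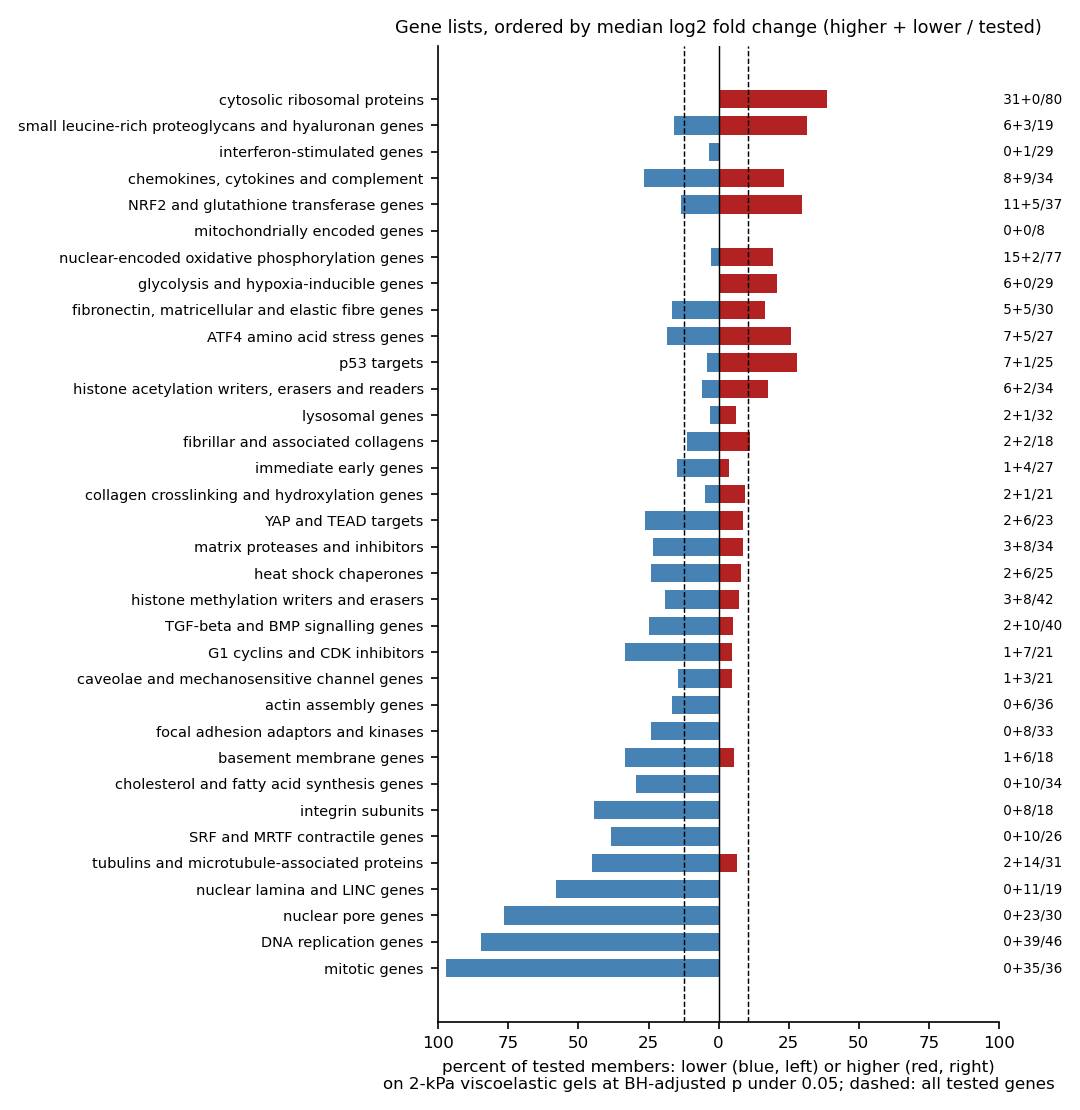
Share of the tested members of 34 gene lists that were lower (bars to the left) or higher (bars to the right) on 2-kPa viscoelastic than on 20-kPa elastic gels at an adjusted p under 0.05 (x axis, percent), ordered by median log2 fold change. Dashed lines give the shares among all tested genes, 12.4% lower and 10.4% higher; mitotic genes stood at the lower end and ribosomal protein genes at the upper end.

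The largest decreases among genes with a mean of at least 5 CPM and separated groups were those of Lif, Nes, F2rl1, Kcnn4 and Ereg. Lif, a cytokine of the interleukin 6 family, measured 11.3, 7.71 and 20.02 CPM on the stiff elastic and 3.81, 4.78 and 3.698 CPM on the soft viscoelastic gels (log2 fold change −1.66 ± 0.28 (SE), adjusted p = 0.00116). F2rl1, protease-activated receptor 2, measured 10.9, 8.89 and 16.1 against 5.21, 5.28 and 3.27 CPM (log2 fold change −1.38 ± 0.21 (SE), adjusted p = 0.000628). Kcnn4, a calcium-activated potassium channel, measured 10.8, 12.5 and 18.98 against 5.26, 7.16 and 4.68 CPM (log2 fold change −1.31 ± 0.18 (SE), adjusted p = 0.000383). Ereg, the EGF receptor ligand epiregulin, measured 115, 129 and 227 against 75.1, 68.2 and 51.4 CPM (log2 fold change −1.27 ± 0.19 (SE), adjusted p = 0.000628). Separation of the groups was a condition of this choice and is no further result.

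Of 34 chemokine, cytokine and complement genes 8 rose and 9 fell, beside 10.4% higher and 12.4% lower among all genes. Cxcl2, a neutrophil chemokine, measured 2.52, 0.958 and 3.67 CPM on elastic and 0.374, 1.01 and 0.573 CPM on viscoelastic gels with overlapping groups (log2 fold change −1.86 ± 0.42 (SE), adjusted p = 0.00624), and Ptgs2 (−0.84), Il11 (−0.81) and Csf1 (−0.60) fell with Lif. Those that rose included the complement genes Cfb, C1ra, C1s1, C3 and C4b, the complement inhibitor gene Serping1 and the chemokine gene Ccl9. The complement gene C2 (0.17 (adjusted p = 0.694)) and the complement regulator genes Cd55 (0.20 (adjusted p = 0.356)) and Cd59a (0.11 (adjusted p = 0.424)) did not pass the test. Cfb, complement factor B, measured 0.467, 0.388 and 0.3698 against 0.654, 0.696 and 0.811 CPM (log2 fold change 0.81 ± 0.24 (SE), adjusted p = 0.0247), and Serping1 changed by 0.78. The count that rose was 5 without 2-kPa viscoelastic replicate 3 and 5 without 20-kPa elastic replicate 3. Cfb lost its call without 2-kPa viscoelastic replicate 3 (adjusted p = 0.0977) or 20-kPa elastic replicate 2 (0.0779) or 20-kPa elastic replicate 3 (0.102), and by the DESeq2 Wald test (adjusted p = 0.0571) and with the 6 samples fitted alone (0.0532). Of 29 interferon-stimulated genes 1 fell (3.45%) and none rose, fewer than the 12.4% lower and 10.4% higher among all genes. Changes were positive in 24 of the 29, with a median of 0.165 on the log2 scale. None of the 29 lay higher with separated groups, beside 18.0% of all genes. The mean level of the list, on the log2 scale against the stiff elastic mean, overlapped between the groups. It was 0.318, −0.155 and −0.162 in the stiff elastic and 0.0101, 0.523 and −0.354 in the soft viscoelastic samples. The gene that fell was the antiviral gene Rsad2, of low level (1.03, 0.593 and 0.444 against 0.2103, 0.312 and 0.167 CPM, log2 fold change −1.58 ± 0.40 (SE), adjusted p = 0.0115). Rsad2 lost its call without 2-kPa viscoelastic replicate 3 (adjusted p = 0.0584). Of 27 genes on the immediate early list 4 fell and 1 rose, beside 12.4% lower and 10.4% higher among all genes. Fosl1, an AP-1 subunit, led those that fell (4.27, 3.81 and 6.14 against 3.01, 2.74 and 2.53 CPM, log2 fold change −0.78 ± 0.17 (SE), adjusted p = 0.00485). The only member that rose was Txnip, a thioredoxin inhibitor (0.18 (adjusted p = 0.0358)). Txnip lost its call without 2-kPa viscoelastic replicate 2 (adjusted p = 0.0582) or 2-kPa viscoelastic replicate 3 (0.105) or 20-kPa elastic replicate 2 (0.144) or 20-kPa elastic replicate 3 (0.0926), and without the expression filter (adjusted p = 0.061), with the length and GC correction (0.0842) and with the 6 samples fitted alone (0.076).

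In the TGF-beta and BMP pathway 10 of 40 genes fell and 2 rose, beside 10.4% higher and 12.4% lower among all genes. Grem1, a secreted BMP antagonist, measured 429.7, 505 and 609 CPM on elastic and 306, 336 and 292 CPM on viscoelastic gels (log2 fold change −0.72 ± 0.10 (SE), adjusted p = 0.000383). The activin subunit gene Inhba (−0.70), its antagonist Fst (−0.62), the ligand gene Tgfb1 (−0.39) and the receptor gene Tgfbr1 (−0.31) fell too. Chrdl1, another BMP antagonist, measured 13.98, 14.00 and 9.71 against 17.7, 19.7 and 20.00 CPM (log2 fold change 0.60 ± 0.15 (SE), adjusted p = 0.00952). Chrdl1 lost its call without 20-kPa elastic replicate 3 (adjusted p = 0.051).

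Fibrillar and associated collagens stayed near the background, with 2 of 18 higher, 2 lower and a median of 0.00. Col1a1, the main collagen of the dermis, measured 6415, 5882 and 6066 CPM on the stiff elastic and 5686, 6793 and 6131 CPM on the soft viscoelastic gels (log2 fold change 0.02 ± 0.08 (SE), adjusted p = 0.891). Fn1, fibronectin, measured 43635, 44298 and 47111 against 45758, 37478 and 43963 CPM (log2 fold change −0.09 ± 0.11 (SE), adjusted p = 0.608). Neither gene passed the test. Col6a3, a chain of the beaded-filament collagen VI, measured 996, 984 and 1316 against 701, 621 and 653 CPM (log2 fold change −0.74 ± 0.12 (SE), adjusted p = 0.000908). Col27a1, a fibrillar collagen of cartilage, measured 337, 374 and 301 against 340.2, 552 and 458 CPM with overlapping groups (log2 fold change 0.42 ± 0.14 (SE), adjusted p = 0.0447). Col14a1, a fibril-associated collagen, measured 58.04, 58.3 and 51.3 against 62.3, 64.2 and 73.3 CPM (log2 fold change 0.25 ± 0.08 (SE), adjusted p = 0.0431). Col27a1 lost its call without 2-kPa elastic replicate 1 or 2 or 2-kPa viscoelastic replicate 2 or 3 or 20-kPa elastic replicate 1 or 3 or 20-kPa viscoelastic replicate 1 or 3 (adjusted p of up to 0.196, without 2-kPa viscoelastic replicate 2), and with the 6 samples fitted alone (adjusted p = 0.0867). Col14a1 lost its call without 2-kPa elastic replicate 1 or 2 or 3 or 2-kPa viscoelastic replicate 3 or 20-kPa elastic replicate 1 or 2 or 3 or 20-kPa viscoelastic replicate 3 (adjusted p of up to 0.193, without 2-kPa viscoelastic replicate 3), and with the 6 samples fitted alone (adjusted p = 0.0612).

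Small leucine-rich proteoglycans bind collagen fibrils and set their diameter. Of 19 proteoglycan and hyaluronan genes 6 rose and 3 fell, beside 10.4% higher and 12.4% lower among all genes. The 6 were Ogn, Omd, Fmod, Aspn, Podn and Dcn, all of the leucine-rich family, of which Bgn (0.12 (adjusted p = 0.275)), Lum (0.27 (adjusted p = 0.155)) and Prelp (0.22 (adjusted p = 0.0968)) did not pass the test. Ogn, osteoglycin (chromosome 13, 49608046 to 49624501, plus strand), measured 688, 528 and 443 CPM on elastic and 904, 1106 and 969 CPM on viscoelastic gels (log2 fold change 0.84 ± 0.15 (SE), adjusted p = 0.00132). Omd, osteomodulin, measured 91.1, 73.5 and 61.9 against 116, 156 and 124 CPM (log2 fold change 0.81 ± 0.16 (SE), adjusted p = 0.00258). The 3 that fell act on hyaluronan: Has1, a hyaluronan synthase (3.04, 2.897 and 4.44 against 1.54, 2.23 and 1.503 CPM, log2 fold change −0.97 ± 0.25 (SE), adjusted p = 0.0121), its receptor gene Cd44 (−0.86) and the hyaluronidase gene Cemip2 (−0.29). The number that rose was 3 without 20-kPa elastic replicate 3, and the number that fell 1 without 2-kPa viscoelastic replicate 3 and 1 without 20-kPa elastic replicate 3. Has1 lost its call without 2-kPa viscoelastic replicate 3 (adjusted p = 0.0602) or 20-kPa elastic replicate 3 (0.0761). Of 7 tested cartilage markers 3 rose and none fell, beside 10.4% higher and 12.4% lower among all genes. Those that rose were Comp (0.50 (adjusted p = 0.0119)), Col9a1 (0.54 (adjusted p = 0.0138)) and Col9a2 (0.62 (adjusted p = 0.0197)). Col2a1 measured 2396, 2428 and 2426 against 2572, 3335 and 2988 CPM (0.30 (adjusted p = 0.109)). Acan measured 963, 1032 and 1090 against 958, 1146 and 1053 CPM with overlapping groups. The part of cartilage-like RNA in the proteoglycan result was not tested.

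Of 18 basement membrane genes 6 fell and 1 rose, beside 10.4% higher and 12.4% lower among all genes. Among those that fell were the collagen IV chain genes Col4a1 (−0.36) and Col4a2 (−0.33) and the laminin chain gene Lamc1 (−0.38). Nid2, which links laminin to collagen IV, measured 188, 179.9 and 172 against 191, 255 and 242 CPM (log2 fold change 0.35 ± 0.09 (SE), adjusted p = 0.0139). The count that fell was 3 without 2-kPa viscoelastic replicate 3 and 2 without 20-kPa elastic replicate 3. Nid2 lost its call without 2-kPa viscoelastic replicate 2 (adjusted p = 0.051) or 2-kPa viscoelastic replicate 3 (0.0643) or 20-kPa elastic replicate 3 (0.069). Of 30 fibronectin, matricellular and elastic fibre genes 5 rose and 5 fell, beside 10.4% higher and 12.4% lower among all genes: Smoc2, a calcium-binding matricellular protein, measured 648, 595 and 467 against 698, 889.8 and 831 CPM (log2 fold change 0.50 ± 0.12 (SE), adjusted p = 0.00996). Spp1, osteopontin, measured 15087, 13330.3 and 19778 against 10626, 14304 and 9832 CPM with overlapping groups (log2 fold change −0.47 ± 0.16 (SE), adjusted p = 0.0456). Here the number that rose was 9 without 2-kPa viscoelastic replicate 1, 2 without 20-kPa elastic replicate 3, 8 with total counts in place of TMM, 8 by the DESeq2 Wald test and 8 without the expression filter, the number that fell 3 without 2-kPa viscoelastic replicate 2, 2 without 2-kPa viscoelastic replicate 3, 2 without 20-kPa elastic replicate 3, 8 by the DESeq2 Wald test and 3 with the 6 samples fitted alone. Smoc2 lost its call without 20-kPa elastic replicate 3 (adjusted p = 0.0556). Spp1 lost its call without 2-kPa elastic replicate 1 or 2 or 3 or 2-kPa viscoelastic replicate 1 or 3 or 20-kPa elastic replicate 1 or 3 or 20-kPa viscoelastic replicate 1 or 3 (adjusted p of up to 0.237, without 20-kPa elastic replicate 3), and with the 6 samples fitted alone (adjusted p = 0.107).

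Among 34 matrix proteases and inhibitors 8 fell and 3 rose, beside 10.4% higher and 12.4% lower among all genes. The number that rose was 7 without 2-kPa viscoelastic replicate 1, 1 without 2-kPa viscoelastic replicate 2, 1 without 2-kPa viscoelastic replicate 3, 1 without 20-kPa elastic replicate 2, 0 without 20-kPa elastic replicate 3 and 5 without the expression filter. Those that fell included the plasminogen activation genes Plau (−0.46) and Plaur (−0.80). Mmp9, a gelatinase of low level, measured 1.54, 1.57 and 4.61 against 0.888, 1.49 and 0.978 CPM (log2 fold change −1.19 ± 0.40 (SE), adjusted p = 0.0439). Mmp23 measured 31.00, 26.3 and 24.4 against 32.2, 42.5 and 36.9 CPM (log2 fold change 0.45 ± 0.11 (SE), adjusted p = 0.00827). Of 21 collagen crosslinking and hydroxylation genes 2 rose (9.52%) and 1 fell (4.76%), no more than the 10.4% higher and 12.4% lower among all genes. Tgm2, a transglutaminase, measured 54.3, 53.5 and 43.2 against 68.6, 79.3 and 79.3 CPM (log2 fold change 0.59 ± 0.09 (SE), adjusted p = 0.000693). Loxl3, a lysyl oxidase, measured 422, 433 and 519 against 354, 422 and 343 CPM (log2 fold change −0.30 ± 0.09 (SE), adjusted p = 0.025). Mmp9 lost its call without 2-kPa elastic replicate 2 or 2-kPa viscoelastic replicate 1 or 3 or 20-kPa elastic replicate 3 or 20-kPa viscoelastic replicate 1 or 3 (adjusted p of up to 0.338, without 20-kPa elastic replicate 3), and with the 6 samples fitted alone (adjusted p = 0.0794). Mmp23 lost its call without 20-kPa elastic replicate 3 (adjusted p = 0.0513). Loxl3 lost its call without 2-kPa viscoelastic replicate 1 (adjusted p = 0.0603) or 2-kPa viscoelastic replicate 3 (0.113) or 20-kPa elastic replicate 3 (0.147), and with the 6 samples fitted alone (adjusted p = 0.0823).

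Detoxification genes held the gene with the lowest adjusted p of the comparison. Gstm1, a glutathione transferase of the mu class (chromosome 3, 108012255 to 108017973, minus strand), measured 28.7, 26.3 and 25.1 CPM on the stiff elastic and 42.5, 49.3 and 50.5 CPM on the soft viscoelastic gels (log2 fold change 0.83 ± 0.07 (SE), adjusted p = 8e-05), a 1.78-fold increase. Of 37 NRF2 and glutathione transferase genes 11 rose and 5 fell, beside 10.4% higher and 12.4% lower among all genes. The 11 comprised 7 glutathione transferases of the cytosolic mu and theta classes (Gstm1, Gstm2, Gstm4, Gstm5, Gstt1, Gstt2 and Gstt3), Gstz1, 2 microsomal ones (Mgst1 and Mgst2) and the catalase gene Cat. Of the other glutathione transferases Gsto1 fell (−0.23 (adjusted p = 0.0169)), and Gsta4 (0.19 (adjusted p = 0.501)), Gstm7 (0.31 (adjusted p = 0.338)), Gstp1 (0.15 (adjusted p = 0.0733)) and Mgst3 (−0.03 (adjusted p = 0.917)) did not pass the test. The 5 that fell included NRF2 targets that import cystine or reduce thioredoxin: Slc7a11 measured 2.405, 3.604 and 4.73 against 1.87, 1.801 and 1.43 CPM (log2 fold change −1.07 ± 0.20 (SE), adjusted p = 0.00233), and Txnrd1 changed by −0.47. Mu-class genes lie in a cluster of near-identical copies, so their reads may be shared. The number that fell was 3 without 2-kPa viscoelastic replicate 3, 3 without 20-kPa elastic replicate 3 and 3 with the 6 samples fitted alone. The antioxidant response core TGACNNNGC, on either strand, was in 8 of 35 promoters of the list (22.9%) and in 1303 of the 10882 promoters of tested genes.

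Other genes that rose with the lowest p or by the largest step included enzymes of small molecules. Aldh1a7, an aldehyde dehydrogenase, measured 41.9, 39.6 and 35.2 CPM on elastic and 68.2, 63.5 and 77.8 CPM on viscoelastic gels (log2 fold change 0.84 ± 0.08 (SE), adjusted p = 0.000134). Akr1c14, a hydroxysteroid dehydrogenase, had the largest increase among genes with a mean of at least 5 CPM and separated groups, with 10.02, 8.26 and 6.73 against 16.8, 18.7 and 18.5 CPM (log2 fold change 1.11 ± 0.19 (SE), adjusted p = 0.00127). Dio3, which inactivates thyroid hormone, measured 4.58, 3.42 and 2.54 against 6.54, 7.13 and 7.44 CPM (log2 fold change 1.000 ± 0.17 (SE), adjusted p = 0.00119). Cyb5a, the electron carrier cytochrome b5, changed by 0.43 (adjusted p = 0.000262), Abat, which degrades GABA, by 0.64 (adjusted p = 0.000325) and Scara5, a ferritin receptor, by 0.73 (adjusted p = 0.000282) on the log2 scale. Mia, a secreted protein of cartilage, measured 8.101, 6.52 and 5.202 against 8.44, 15.6 and 12.3 CPM (log2 fold change 0.87 ± 0.18 (SE), adjusted p = 0.00414). Angpt4, an angiopoietin, measured 16.3, 15.2 and 13.5 against 23.2, 28.98 and 30.3 CPM (log2 fold change 0.87 ± 0.13 (SE), adjusted p = 0.000475). These 8 genes were chosen among those with separated groups, so their lack of overlap is no further result.

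**Figure D4:**
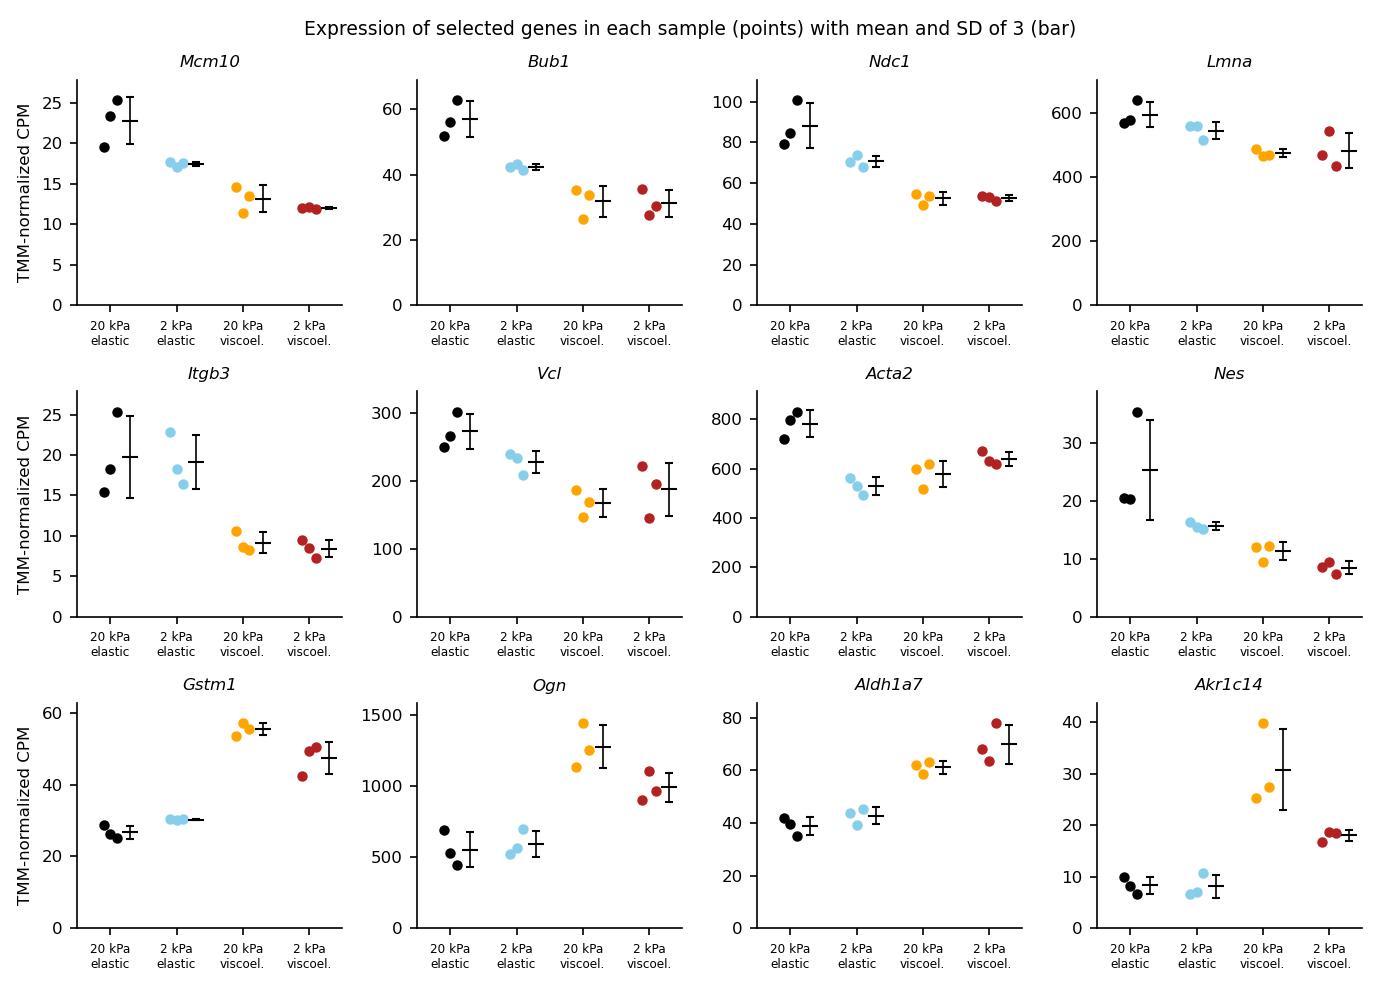
TMM-normalized CPM of 12 genes (y axis, from 0) on the 4 kinds of gel (x axis). Points are samples and bars the mean and SD of 3: Mcm10, Bub1, Ndc1, Itgb3 and Nes lay lower, and Gstm1, Ogn, Aldh1a7 and Akr1c14 higher, in all 3 samples on 2-kPa viscoelastic gels than in any on 20-kPa elastic gels. Nes, Gstm1, Ogn, Aldh1a7 and Akr1c14 were chosen among genes with separated groups. Of all tested genes 18.4% were lower and 18.0% higher with separated groups.

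Genes of the translation machinery moved by small steps and rested on few samples. Of 80 cytosolic ribosomal protein genes 31 rose and none fell, beside 10.4% higher among all genes, with a median of 0.18 on the log2 scale. Rpl23a had the largest step, 40.4, 42.1 and 36.6 CPM on elastic and 49.1, 43.8 and 60.3 CPM on viscoelastic gels (log2 fold change 0.36 ± 0.11 (SE), adjusted p = 0.0322), and its counts were identical to those of a second listed gene. The number that rose was 20 without 2-kPa viscoelastic replicate 1, 61 without 2-kPa viscoelastic replicate 2, 4 without 2-kPa viscoelastic replicate 3, 8 without 20-kPa elastic replicate 2, 6 without 20-kPa elastic replicate 3, 9 with the length and GC correction and 9 with the 6 samples fitted alone. Rpl23a lost its call without 2-kPa viscoelastic replicate 3 (adjusted p = 0.174) or 20-kPa elastic replicate 1 (0.0554) or 20-kPa elastic replicate 3 (0.14), and with the length and GC correction (adjusted p = 0.109). Many ribosomal protein genes have processed pseudogenes, which could share their reads.

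Of 77 nuclear-encoded oxidative phosphorylation genes 15 rose and 2 fell, beside 10.4% and 12.4% of all genes. Ndufa6, a complex I subunit, measured 31.3, 28.3 and 29.1 against 37.7, 35.7 and 39.7 CPM (log2 fold change 0.35 ± 0.06 (SE), adjusted p = 0.00128). Cycs, cytochrome c, measured 28.3, 27.3 and 29.7 against 23.5, 25.1 and 22.8 CPM (log2 fold change −0.26 ± 0.07 (SE), adjusted p = 0.0127). None of the 8 mitochondrially encoded genes tested passed the threshold. The number of nuclear genes that rose was 9 without 2-kPa elastic replicate 2, 7 without 2-kPa viscoelastic replicate 3, 8 without 20-kPa elastic replicate 2, 3 without 20-kPa elastic replicate 3, 7 with the length and GC correction and 7 with the 6 samples fitted alone. Cycs lost its call without 2-kPa viscoelastic replicate 3 (adjusted p = 0.0619) or 20-kPa elastic replicate 3 (0.0698). Of 29 glycolysis and hypoxia-inducible genes 6 rose and none fell, beside 10.4% higher among all genes, led by Aldoc, an aldolase (5.81, 4.698 and 3.99 against 6.59, 10.9 and 7.78 CPM, log2 fold change 0.80 ± 0.18 (SE), adjusted p = 0.00612), and the count was 3 without 2-kPa viscoelastic replicate 3 and 3 without 20-kPa elastic replicate 3.

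Of 34 cholesterol and fatty acid synthesis genes 10 fell and none rose, beside 12.4% lower among all genes. The count was 4 without 2-kPa viscoelastic replicate 3, 3 without 20-kPa elastic replicate 3 and 6 with the 6 samples fitted alone. Among 27 ATF4 amino acid stress genes 7 rose and 5 fell, beside 10.4% higher and 12.4% lower among all genes: the arginine and lysine carrier gene Slc7a3 measured 1.07, 0.889 and 1.01 against 1.52, 2.31 and 1.17 CPM (log2 fold change 0.75 ± 0.23 (SE), adjusted p = 0.0337). Slc7a5, a carrier of large neutral amino acids, measured 49.9, 57.04 and 73.3 against 39.4, 41.6 and 37.7 CPM (log2 fold change −0.60 ± 0.11 (SE), adjusted p = 0.00178). The transcription factor genes Atf4, Atf5 and Ddit3 rose by 0.25, 0.42 and 0.29. The number that rose was 4 without 2-kPa viscoelastic replicate 3, 3 without 20-kPa elastic replicate 2 and 4 with the 6 samples fitted alone and the number that fell 2 without 2-kPa viscoelastic replicate 3 and 2 without 20-kPa elastic replicate 3. Slc7a3 lost its call without 2-kPa viscoelastic replicate 2 (adjusted p = 0.171) or 20-kPa elastic replicate 2 (0.108) or 20-kPa elastic replicate 3 (0.0958), and with the 6 samples fitted alone (adjusted p = 0.0749).

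Chromatin genes moved in both directions. Of 42 histone methylation writers and erasers 8 fell and 3 rose, and of 34 histone acetylation genes 6 rose and 2 fell, beside 10.4% higher and 12.4% lower among all genes. The acetylation share that fell, 5.88%, and the methylation share that rose, 7.14%, lay below those of all genes. Suv39h2, an H3K9 methyltransferase, measured 6.93, 8.53 and 8.46 CPM on elastic and 4.84, 4.25 and 4.46 CPM on viscoelastic gels (log2 fold change −0.82 ± 0.12 (SE), adjusted p = 0.000442), and Ezh2 (−0.40) and Suz12 (−0.36) of the Polycomb complex fell. Kdm6b, which removes methyl groups from H3K27, rose (47.98, 45.02 and 43.2 to 50.2, 55.1 and 55.1 CPM, log2 fold change 0.24 ± 0.06 (SE), adjusted p = 0.0136). Hat1, which acetylates new histone H4, measured 50.1, 48.97 and 58.1 against 37.7, 37.1 and 37.6 CPM (log2 fold change −0.48 ± 0.08 (SE), adjusted p = 0.0007). Sirt5, a mitochondrial deacylase, measured 4.95, 4.88 and 4.54 against 6.61, 5.76 and 6.44 CPM (log2 fold change 0.39 ± 0.10 (SE), adjusted p = 0.0143). Of the deacetylases Hdac1 changed by 0.15 and Hdac8 by 0.35. The number of methylation genes that fell was 4 without 2-kPa viscoelastic replicate 3, 4 without 20-kPa elastic replicate 3, 5 with the length and GC correction and 5 with the 6 samples fitted alone, and the number that rose 0 without 2-kPa viscoelastic replicate 3, 0 without 20-kPa elastic replicate 3, 6 with the length and GC correction and 1 with the 6 samples fitted alone. For acetylation genes the number that rose was 2 without 2-kPa viscoelastic replicate 3, 1 without 20-kPa elastic replicate 3, 10 with total counts in place of TMM and 2 with the 6 samples fitted alone. Kdm6b lost its call without 2-kPa viscoelastic replicate 3 (adjusted p = 0.0594) or 20-kPa elastic replicate 3 (0.0766). Sirt5 lost its call without 2-kPa viscoelastic replicate 3 (adjusted p = 0.0543) or 20-kPa elastic replicate 3 (0.0685).

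Of 21 caveola and mechanosensitive channel genes 3 fell and 1 rose, beside 10.4% higher and 12.4% lower among all genes, and the number that fell was 5 without 20-kPa elastic replicate 1 and 1 without 20-kPa elastic replicate 3. Cavin2, a caveola coat protein, measured 145, 172 and 251 against 121, 95.8 and 64.2 CPM (log2 fold change −1.02 ± 0.20 (SE), adjusted p = 0.00294). Kcnk2, a stretch-sensitive potassium channel, measured 32.01, 32.7 and 32.9 against 40.5, 40.3 and 45.3 CPM (log2 fold change 0.37 ± 0.08 (SE), adjusted p = 0.00407), and the mechanosensitive channel gene Piezo1 changed by −0.47. Of 25 heat shock chaperones 6 fell and 2 rose, beside 10.4% higher and 12.4% lower among all genes, with Hspd1, a mitochondrial chaperonin, at 256, 263 and 299 against 204, 198 and 195 CPM (log2 fold change −0.45 ± 0.07 (SE), adjusted p = 0.000489) and Hspb1, the small heat shock protein 27, at 15.2, 13.3 and 13.2 against 16.7, 17.9 and 17.4 CPM (log2 fold change 0.32 ± 0.08 (SE), adjusted p = 0.0108). Of 32 lysosomal genes 2 rose and 1 fell, fewer than the shares of all genes, the protease gene Ctsf changing by 0.41 (adjusted p = 0.00189) and Gusb, a glucuronidase, by −0.24 (adjusted p = 0.00995). Hspb1 lost its call without 20-kPa elastic replicate 3 (adjusted p = 0.0588). Gusb lost its call without 20-kPa elastic replicate 3 (adjusted p = 0.0531).

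The 2 remaining groups show what each change did alone, and the joint change was set against the sum of the single ones. These single changes share the 20-kPa elastic samples with the joint comparison, so their values are given side by side. Softening alone called 7.14% of genes higher and 6.81% lower, and relaxation alone 17.4% higher and 16.1% lower. Softening alone, on 2-kPa elastic gels, moved the median mitotic gene by −0.35 and relaxation alone, on 20-kPa viscoelastic gels, by −0.60, against −0.62 for both. For replication genes these medians were −0.27, −0.34 and −0.51, and for integrins −0.09, −0.24 and −0.13. For contractile genes they were −0.40, −0.24 and −0.19, and for ribosomal protein genes −0.14, 0.39 and 0.18. The contractile median was nearer to 0 with both changes than with either. Unlike its median, the mean level of the integrin list was alike on both viscoelastic gels. Against the stiff elastic mean it was −0.341, −0.29 and −0.414 on 20-kPa viscoelastic and −0.33, −0.289 and −0.454 on 2-kPa viscoelastic gels. Relaxation alone called 9 integrins lower and both changes 8.

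The test of the joint change against the sum of the single changes called 1100 of 14542 genes (7.56%), 453 (3.12%) above the sum and 647 (4.45%) below it. Of the 3312 genes called in the joint comparison 381 (11.5%) departed from the sum. Of the 26 contractile genes 13 lay above the sum and none below it, beside 3.12% above the sum among all genes, against 4 of 36 mitotic and 1 of 46 replication genes. The contractile count was 12 to 14 in the 12 fits that left out 1 sample, and the mitotic count 0 without 2-kPa elastic replicate 1 or 2 or 3 or 2-kPa viscoelastic replicate 1 or 20-kPa elastic replicate 2 or 3 and 1 without 20-kPa viscoelastic replicate 2. Actg2 measured 11.9, 11.8 and 11.3 CPM on soft elastic and 11.98, 14.1 and 12.8 CPM on stiff viscoelastic gels. The soft elastic samples lay below those of the soft viscoelastic gels given above, and the stiff viscoelastic samples overlapped with them. Actg2 departed from the sum by 1.26 ± 0.15 (SE, adjusted p = 0.000228). Acta2 departed by 0.71 (adjusted p = 0.00163), Filip1l by 0.80 (adjusted p = 0.000281) and Sgk1, a serum-induced kinase with 226, 250.01 and 283 against 211, 195 and 169.8 CPM in the joint comparison (log2 fold change −0.40 ± 0.09 (SE), adjusted p = 0.00639), by 1.05 (adjusted p = 0.000259). These 4 kept their departure in all 12 fits that left out 1 sample.

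The 3 called genes below the sum with the lowest p were Adamts9, Col14a1 and Aqp1. Adamts9, a protease that cleaves proteoglycans, measured 35.1, 34.03 and 34.05 CPM on stiff and 96.4, 84.5 and 74.3 CPM on soft elastic gels. On viscoelastic gels it measured 64.2, 69.96 and 65.2 CPM when stiff and 38.5, 45.5 and 45.02 CPM when soft. Its joint change was 0.32 (adjusted p = 0.0164) against a sum of 2.26, a departure of −1.93 ± 0.12 (SE, adjusted p = 1.35e-06). Col14a1 stood at 0.25 with both changes against a sum of 1.78 (departure −1.53, adjusted p = 7.94e-06). Aqp1, a water channel, fell with both changes, from 66.2, 61.9 and 68.7 to 47.2, 56.5 and 50.6 CPM (log2 fold change −0.35 ± 0.09 (SE), adjusted p = 0.0141), and was higher under softening alone (0.65) and under relaxation alone (0.50), a departure of −1.49 (adjusted p = 1.56e-05). The departures of Adamts9, Col14a1 and Aqp1 held in all 12 fits that left out 1 sample. In the joint comparison itself, Col14a1 was as given above. Adamts9 lost its call without 2-kPa viscoelastic replicate 2 (adjusted p = 0.0517) or 2-kPa viscoelastic replicate 3 (0.0725) or 20-kPa elastic replicate 2 (0.0512) or 20-kPa elastic replicate 3 (0.0649). Aqp1 lost its call without 2-kPa viscoelastic replicate 3 (adjusted p = 0.0552) or 20-kPa elastic replicate 3 (0.0674).

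**Figure D5:**
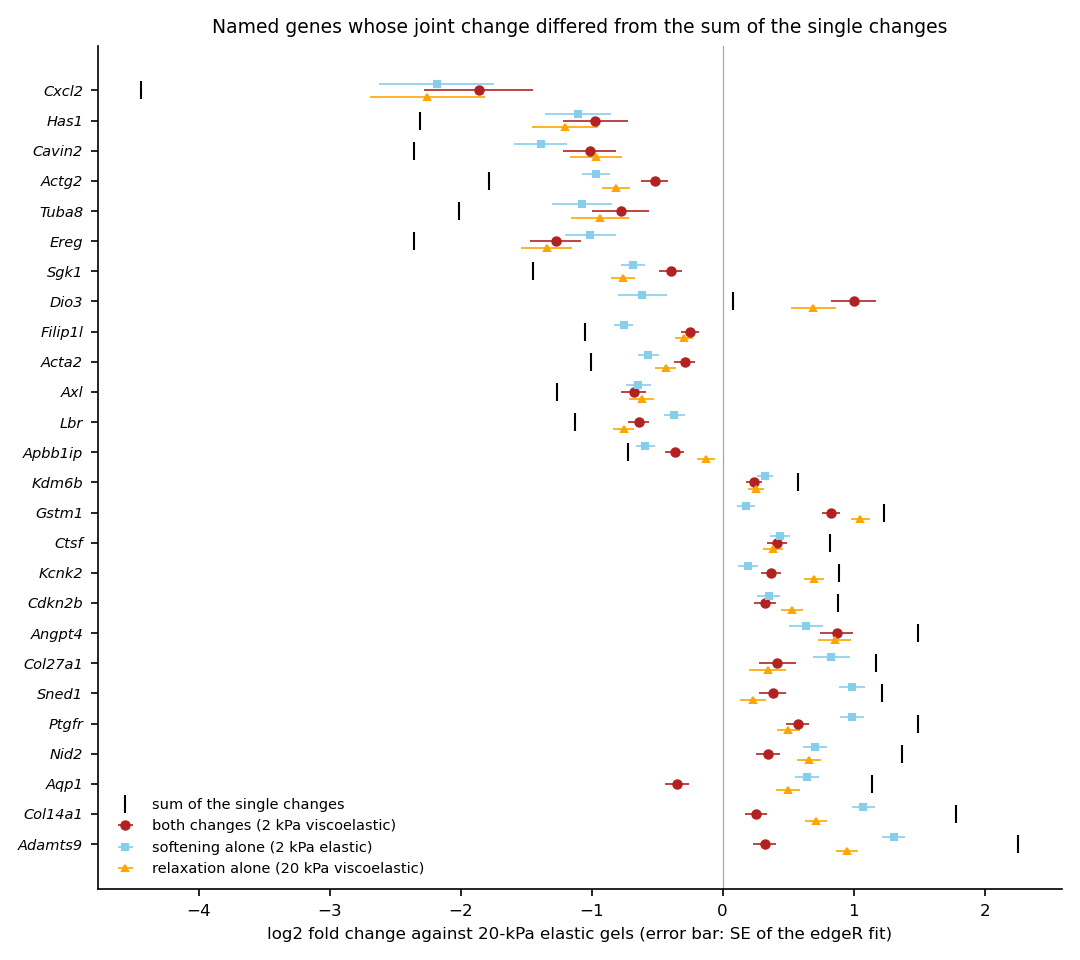
Log2 fold change against 20-kPa elastic gels (x axis) of the 26 named genes whose joint change departed from the sum of the single changes (y axis). Circles are both changes, squares softening alone, triangles relaxation alone, vertical ticks the sum of the last 2, and error bars the SE of the fit: Adamts9, Col14a1 and Aqp1 lie left of their sum and Actg2, Sgk1 and Filip1l right of it.

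The opposite diagonal of the design, 20-kPa viscoelastic against 2-kPa elastic gels, adds relaxation while it raises stiffness, and shares no sample with the comparison of 2-kPa viscoelastic and 20-kPa elastic gels. Across the 14542 genes the log2 fold changes of the 2 diagonals had a Spearman correlation of 0.418 and a Pearson r of 0.407, a description across genes, which are not independent. Called in both were 1497 genes, 45.2% of the calls of the first and 32.8% of those of the opposite diagonal, and 1382 of them moved the same way and 115 the other way. The opposite diagonal called 15.9% of genes higher and 15.5% lower. A test of the difference between the diagonals called 1474 genes (10.1%), 4.11% higher and 6.02% lower, among them 646 (19.5%) of the 3312.

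Of 46 replication genes 23 were lower in the test of the difference and none higher, beside 6.02% lower among all genes. Of the mitotic genes 16 of 36 and of the contractile genes 14 of 26 were lower in that test. Cytosolic ribosomal protein genes were lower in 56 of 80 cases, with a median of 0.54 on the opposite diagonal against 0.18 here. These counts depended on single samples of all 4 groups. The replication count was 11 without 2-kPa elastic replicate 2 or 2-kPa viscoelastic replicate 3 or 20-kPa viscoelastic replicate 3, 12 without 20-kPa elastic replicate 3, 13 without 20-kPa viscoelastic replicate 1 and 14 without 2-kPa elastic replicate 3. The mitotic count was 4 without 20-kPa viscoelastic replicate 3, 6 without 2-kPa viscoelastic replicate 3 or 20-kPa elastic replicate 3 or 20-kPa viscoelastic replicate 1, 9 without 2-kPa elastic replicate 2, 10 without 2-kPa elastic replicate 3 and 33 without 20-kPa viscoelastic replicate 2. The contractile count was 9 without 2-kPa elastic replicate 2 or 3 or 2-kPa viscoelastic replicate 3 or 20-kPa elastic replicate 3, and the ribosomal count 17 without 20-kPa viscoelastic replicate 3, 23 without 2-kPa elastic replicate 2, 26 without 20-kPa viscoelastic replicate 1, 27 without 2-kPa elastic replicate 3, 31 without 20-kPa elastic replicate 2, 33 without 20-kPa elastic replicate 1 and 37 without 2-kPa elastic replicate 1 or 20-kPa elastic replicate 3. Of the integrins 2 of 18 were higher and none lower in the test, beside 4.11% higher among all genes. Leaving out 1 sample gave 1 higher without 2-kPa elastic replicate 2 or 20-kPa viscoelastic replicate 3, at most 3 in the other fits, and 2 lower without 20-kPa elastic replicate 1. The genes with the lowest p of the difference among those called were Ptgfr, Cmya5 and Sned1 above the opposite diagonal and Apbb1ip, S100a10 and Lyar below it. Ptgfr, the prostaglandin F receptor, measured 33.01, 34.2 and 32.7 against 42.7, 58.3 and 47.5 CPM (log2 fold change 0.57 ± 0.09 (SE), adjusted p = 0.000757) against a change of −0.48 on the opposite diagonal (adjusted p of the difference = 0.000771). Cmya5, the muscle protein myospryn, stood at 0.49 (adjusted p = 0.00189) against −0.61 (adjusted p of the difference = 0.000727), and Sned1, a matrix protein, at 0.38 (adjusted p = 0.0154) against −0.76 (adjusted p of the difference = 0.001). Apbb1ip, which brings talin to integrins, measured 39.3, 34.7 and 39.6 against 28.5, 31.8 and 27.7 CPM (log2 fold change −0.37 ± 0.07 (SE), adjusted p = 0.00263) against 0.46 (adjusted p of the difference = 0.000794). Lyar, a nucleolar protein, stood at −0.40 (adjusted p = 0.00072) against 0.39 (adjusted p of the difference = 0.000727), and S100a10, the annexin A2 partner, at −0.17 (adjusted p = 0.0457) against 0.54 (adjusted p of the difference = 0.000727). All 6 differences held in the 12 fits that left out 1 sample. Sned1 lost its call without 2-kPa viscoelastic replicate 2 (adjusted p = 0.053) or 2-kPa viscoelastic replicate 3 (0.0763) or 20-kPa elastic replicate 3 (0.0816), and with the 6 samples fitted alone (adjusted p = 0.0552). S100a10 lost its call without 2-kPa elastic replicate 1 or 2 or 3 or 2-kPa viscoelastic replicate 2 or 3 or 20-kPa elastic replicate 1 or 3 or 20-kPa viscoelastic replicate 1 or 2 or 3 (adjusted p of up to 0.216, without 20-kPa elastic replicate 3), and with total counts in place of TMM (adjusted p = 0.0855), without the expression filter (0.1) and with the 6 samples fitted alone (0.122).

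Lmnb1 differed between the diagonals, at −0.62 here and −0.09 on the opposite diagonal (adjusted p of the difference = 0.0167), and without 20-kPa viscoelastic replicate 3 that p was 0.0519. Lmna stood at −0.30 and −0.20 (adjusted p of the difference = 0.596) and Vcl at −0.54 and −0.44 (adjusted p of the difference = 0.785), so that for these 2 genes no difference between the diagonals was detected. Gstm1 stood at 0.83 and 0.87 (adjusted p of the difference = 0.814) and Akr1c14 at 1.11 and 1.93 (adjusted p of the difference = 0.0651).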

How the data were processed

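Polyadenylated RNA of ear fibroblasts was sequenced in 12 samples, 3 in each of 4 groups taken from the labels, which the study calls biological replicates. Whether these came from separate animals was not stated in the sources used here, so p-values measure the spread between these samples. The authors trimmed reads with Trimmomatic, aligned them to mm10 with STAR and deposited raw featureCounts counts per gene in 1 table, without normalization. Strand setting, annotation release and handling of reads with several positions are not given in the sources used here. Symbols were matched to GENCODE for position, length and GC content.

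Counts were tested with edgeR 4.0.16 (R 4.3.3): filterByExpr by group (minimum count 10, minimum total 15), TMM, and a quasi-likelihood fit with 1 coefficient per group to all 12 samples, with Benjamini-Hochberg adjustment over 14542 genes and calls under 0.05. The biological coefficient of variation was 7.5%. CPM values are TMM-normalized. The contrasts were 2-kPa viscoelastic minus 20-kPa elastic gels, that minus the opposite diagonal, and that minus the sum of the single changes. The fit was first run on simulated data in which all genes had a common spread. That run does not test how the fit handles spread that differs between genes or samples.

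Members, gene lists and markers were chosen with earlier results of these data known. Named genes were, per direction, the 5 with the lowest p and the 5 with the largest change (mean of at least 5 CPM) among genes with separated groups, the called member with the largest change in each list, 10 fixed genes (Lmna, Lmnb1, Vcl, Tln1, Itgb1, Fn1, Col1a1, Acta2, Ccn2 and Mki67), and the 3 called genes of each sign with the lowest p in each of the other 2 tests. Other members stand beside their list by size or role, and cartilage markers, Ccn1 and Piezo1 were named after their values were seen. A few genes chosen by the rule are not reported here. Alternatives were DESeq2 1.42.0 size factors, total counts, the DESeq2 Wald test, no filter, a replicate block, a correction for length and GC content (known for 96.1% of tested genes), both together, the 6 samples alone, each sample left out and a threshold of 0.01.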

Additional observations from a re-analysis of the deposited data

Results flagged for a closer look

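For 26 of the named genes the effect of softening differed between viscoelastic and elastic gels. The test was the interaction of stiffness and relaxation in the edgeR fit to all 12 samples, at a Benjamini-Hochberg adjusted p under 0.05, and it is the same quantity as the departure of the joint change from the sum of the single changes. As 3.12% of all tested genes passed it above and 4.45% below the sum, and several of these genes were named for their low p in it, their number is no result. On the log2 scale the difference was positive, 1.26 for Actg2, 1.05 for Sgk1, 0.804 for Filip1l, 0.714 for Acta2, 1.34 for Cavin2, 0.486 for Lbr, 0.584 for Axl, 1.08 for Ereg, 2.57 for Cxcl2, 1.23 for Tuba8, 0.921 for Dio3, 1.34 for Has1 and 0.353 for Apbb1ip. It was negative, -1.93 for Adamts9, -1.53 for Col14a1, -1.49 for Aqp1, -1.02 for Nid2, -0.916 for Ptgfr, -0.837 for Sned1, -0.522 for Kcnk2, -0.561 for Cdkn2b, -0.403 for Gstm1, -0.341 for Kdm6b, -0.408 for Ctsf, -0.756 for Col27a1 and -0.623 for Angpt4. The difference stayed past the threshold in each of the 12 fits that left out 1 sample for Adamts9, Col14a1, Aqp1, Actg2, Sgk1, Filip1l, Nid2, Ptgfr, Acta2, Sned1, Kcnk2, Cavin2, Cdkn2b, Lbr and Axl. For the other genes it did not. Gstm1 kept it in 9 of 12 fits and lost it without 2-kPa elastic replicate 1, 20-kPa elastic replicates 2 and 3. For Ereg it held in 8 of 12 fits and was lost without 2-kPa elastic replicates 1 and 3, 2-kPa viscoelastic replicate 1, 20-kPa viscoelastic replicate 3. In Kdm6b 7 of 12 fits kept it, all but those without 2-kPa elastic replicate 1, 2-kPa viscoelastic replicate 1, 20-kPa elastic replicates 2 and 3, 20-kPa viscoelastic replicate 3. Ctsf kept it in 4 of 12 fits and lost it without 2-kPa elastic replicates 1, 2 and 3, 2-kPa viscoelastic replicates 1 and 3, 20-kPa elastic replicates 2 and 3, 20-kPa viscoelastic replicate 2. For Col27a1 it held in 7 of 12 fits and was lost without 2-kPa elastic replicate 3, 20-kPa elastic replicates 1 and 3, 20-kPa viscoelastic replicates 1 and 3. In Cxcl2 5 of 12 fits kept it, all but those without 2-kPa elastic replicates 1, 2 and 3, 2-kPa viscoelastic replicate 2, 20-kPa elastic replicate 3, 20-kPa viscoelastic replicates 1 and 3. Tuba8 kept it in 5 of 12 fits and lost it without 2-kPa elastic replicates 2 and 3, 2-kPa viscoelastic replicates 1 and 3, 20-kPa elastic replicate 3, 20-kPa viscoelastic replicates 1 and 2. For Dio3 it held in 5 of 12 fits and was lost without 2-kPa elastic replicates 1 and 3, 2-kPa viscoelastic replicate 3, 20-kPa elastic replicates 1 and 2, 20-kPa viscoelastic replicates 1 and 3. In Has1 5 of 12 fits kept it, all but those without 2-kPa elastic replicates 2 and 3, 2-kPa viscoelastic replicates 1 and 2, 20-kPa elastic replicate 3, 20-kPa viscoelastic replicates 1 and 3. Angpt4 kept it in 4 of 12 fits and lost it without 2-kPa elastic replicates 1, 2 and 3, 2-kPa viscoelastic replicate 1, 20-kPa elastic replicates 2 and 3, 20-kPa viscoelastic replicates 1 and 3. For Apbb1ip it held in 3 of 12 fits and was lost without 2-kPa elastic replicates 1, 2 and 3, 2-kPa viscoelastic replicates 1 and 2, 20-kPa elastic replicates 1 and 3, 20-kPa viscoelastic replicates 1 and 3.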

How the results depend on the processing

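The 3 samples of a group and 36626221 to 43612804 counts a library set the precision of these values, and 2372 of the 3312 called genes moved by less than 0.5 on the log2 scale. Of the 94 genes that the rule for names chose, 93 or 94 kept their call and direction with DESeq2 size factors or with total counts in place of TMM, 91 without the expression filter, 90 with a correction for length and GC content and 77 when the 6 samples were fitted alone. Leaving out 20-kPa elastic replicate 3 ended the call of 33 and leaving out 2-kPa viscoelastic replicate 3 that of 28.

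The 3312 genes called between soft viscoelastic and stiff elastic gels were 3278 with DESeq2 size factors, 3359 with total counts, 3577 with the DESeq2 Wald test, 3463 without the filter and 3378 with the length and GC correction. With the 6 samples alone they were 2074, of which 833 rose, and at an adjusted p under 0.01 they were 1427, of which 486 rose and 941 fell. The latter threshold gave 303 genes for the difference between the diagonals, 135 higher and 168 lower, and 400 for the departure from the sum, 151 above and 249 below it. The length and GC correction gave 389 genes higher in the difference between the diagonals. Over the 12 fits that left out 1 sample the joint comparison gave 1419 to 3961 genes, 504 to 1831 higher and 915 to 2130 lower. The difference between the diagonals gave 702 to 1860, 317 to 834 higher and 385 to 1026 lower. The departure gave 670 to 1182, 253 to 555 above and 417 to 702 below the sum. Col1a1, which was not called, ranged from -0.051 without 2-kPa viscoelastic replicate 2 to 0.078 without 2-kPa viscoelastic replicate 1, and was also negative without 20-kPa elastic replicate 2 (-0.0089). List counts of at most 2 called members ranged from 0 to 5 over the same 12 fits. The causes of these changes were not tested.

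No pairing by replicate number was seen between the 2 compared groups: the deviations of same-numbered samples on 2-kPa viscoelastic and 20-kPa elastic gels had correlations of -0.2, -0.136 and -0.114. In no pair of the 4 groups did all 3 exceed 0.1. Those of the 2 viscoelastic groups came closest, all positive at 0.184, 0.308 and 0.0483, and a batch shared by these 2 groups alone was not tested. With the number as a block, 2885 genes were called in the joint comparison, 1141 in the difference between the diagonals and 845 in the departure, and 86 of these 94 genes kept their call or its absence. Genes whose call the block ended included Mmp9, Col14a1, Spp1, Slc7a3, Txnip, S100a10 and Col27a1, at adjusted p-values of 0.055 to 0.0718. The block called 3 matricellular and elastic fibre genes lower and 9 nuclear oxidative phosphorylation genes higher. With the block and the length and GC correction together these counts were 2987, 774 (276 higher and 498 lower) and 963. That fit also ended the calls of Cdkn2b, Cfb, Filip1l, Rpl23a and Tln1, and called 7 ribosomal protein, 6 oxidative phosphorylation and 4 p53 target genes higher. In it 11 actin assembly, 5 histone methylation and 3 matricellular and elastic fibre genes were lower and 6 histone methylation genes higher.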
